A study of Mus musculus with 11 samples.

Results

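The Bcl2 family decides whether a cell commits to the mitochondrial route of apoptosis. Pro-survival proteins such as BCL2, BCL-XL and MCL1 hold the effectors BAX and BAK in check, and the effectors, when released, perforate the outer mitochondrial membrane so that cytochrome c escapes and activates the caspases. BH3-only proteins such as PUMA, NOXA, BID, BIM and BMF sense damage, stress or loss of attachment and either block the pro-survival proteins or activate the effectors. In the inner ear the family is known chiefly for its part in hair cell death after ototoxic drugs. The 10 genes described here are the 3 pro-survival genes Bcl2, Bcl2l1 and Mcl1, the 2 effectors Bax and Bak1, and the 5 BH3-only genes Bbc3, Pmaip1, Bid, Bcl2l11 and Bmf. They were chosen by name, and every probe whose RefSeq transcript belongs to them was taken, which gave 12 of the 55681 probes on the array. Bcl2l1 and Mcl1 had 2 probes each and the other 8 genes had 1, and the brighter probe stands for the gene unless both are given.

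The study asked how otospheres, the floating spheres that dissociated cells of the cochlear sensory epithelium (CSE) form in suspension culture, differ in gene expression from the CSE itself and from embryonic stem cells (ESCs). CSE RNA was taken directly from the epithelium of ICR mice at postnatal day 1, with 20 cochleae of 10 mice pooled per preparation. Otospheres were started from such pools, grown with bFGF at 10 ng/ml and IGF1 at 50 ng/ml, passaged once after 4 to 5 days and cultured for another 4 to 5 days, and filtered by size so that mostly solid spheres remained. ESCs came from 2 mouse lines, G4-2 and D3, taken at passage 13 and kept with 10% serum and LIF at 1000 units per ml. No drug was tested in any group, and the sources used here do not say whether the ESC lines carried a transgene. Each otosphere and CSE array therefore averages over many animals and all cell types of its preparation, and fewer cells of a type and less RNA per cell cannot be told apart. With 1 array per ESC line, the spread between ESC samples is also the spread between lines.

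Cy3-labelled RNA was read on 11 single-colour arrays, and the values below are log2 signals after background correction and quantile normalization. Of the 6 otosphere arrays, OS2 repeated OS1 and OS5 repeated OS4 within the noise between spots, so each of these pairs was counted as 1 sample, which left 4 otosphere samples, 3 CSE samples and 2 ESC samples. ES1, OS1 to OS3, CSE1 and CSE2 lay on slide 1, and ES2, OS4 to OS6 and CSE3 on slide 2. From 55.1% to 71.6% of the spots were well above background on each array, no spot was saturated, and the number of arrays limits the precision. In ESCs, 5 of 6 pluripotency markers were higher than in otospheres. The other, Nanog, ran the opposite way by its brightest probe, with means of 8.38 in ESCs, 9.82 in otospheres and 10.03 in the CSE. The paper lists Nanog among the genes high only in ESCs, and whether the brightest probe reads that gene was not tested. Of the cochlear markers, 5 of 9 hair cell and 5 of 8 supporting cell genes were lower in otospheres than in the CSE. Signal from blood and nerve also moved with the groups. The summed linear signal of 6 erythroid genes was 125200 to 257500 in the CSE against 275.9 to 390.8 in otospheres, with 5 of the 6 lower in otospheres, and that of 6 neuronal genes was 18240 to 41920 against 3438 to 10130, with 4 of the 6 lower. Of 6 endothelial, 5 macrophage and 7 fibroblast markers, 3, 3 and 1 were lower in otospheres. The part of these cells in the differences below was not tested. Levels of different probes cannot be set against each other on this array, so each gene is compared only with itself across samples.

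In otospheres, 4 of the 10 genes were higher than in the CSE they came from, and none was lower. They were the BH3-only genes Pmaip1, Bid and Bbc3 and the effector Bax. The count depends on the choice of probe. The dimmer probes of the pro-survival genes Bcl2l1 and Mcl1 were higher too, by 1.30 and 0.99 (limma adjusted p = 0.0127 and 0.0133). Among all 47997 probes tested, 4.84% were higher and 6.19% lower in this comparison. With the kept probes of each gene averaged, 1642 of 18557 genes were higher and 2141 lower, which are larger shares. Against ESCs, otospheres had 1 gene higher, Bmf, and 2 lower, Mcl1 and Bcl2l11, where 12.1% of all probes were higher and 15.6% lower. The CSE stood furthest from ESCs, with Bcl2 and Bmf higher (background 13.2%) and Mcl1, Bax, Bbc3, Pmaip1, Bid and Bcl2l11 lower (background 15.6%). The median difference over the 10 genes was 0.58 on the log2 scale for otospheres minus CSE, -0.06 for otospheres minus ESCs and -1.44 for CSE minus ESCs, beside 0.02, -0.03 and -0.06 over all probes. Calls rest on a limma model with Benjamini-Hochberg adjustment over all kept probes and a threshold of 0.05. Without regard to the threshold, every otosphere sample lay above every ESC sample for 3 genes and below for 3 (20.7% and 25.5% of all probes), and every CSE sample above every ESC sample for 2 and below for 7 (23.7% and 28.5%). By the F-test over the 3 groups, 8 of the 10 genes differed, all but Bcl2l1 and Bak1, against 33.8% of all probes.

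**Figure D1:**
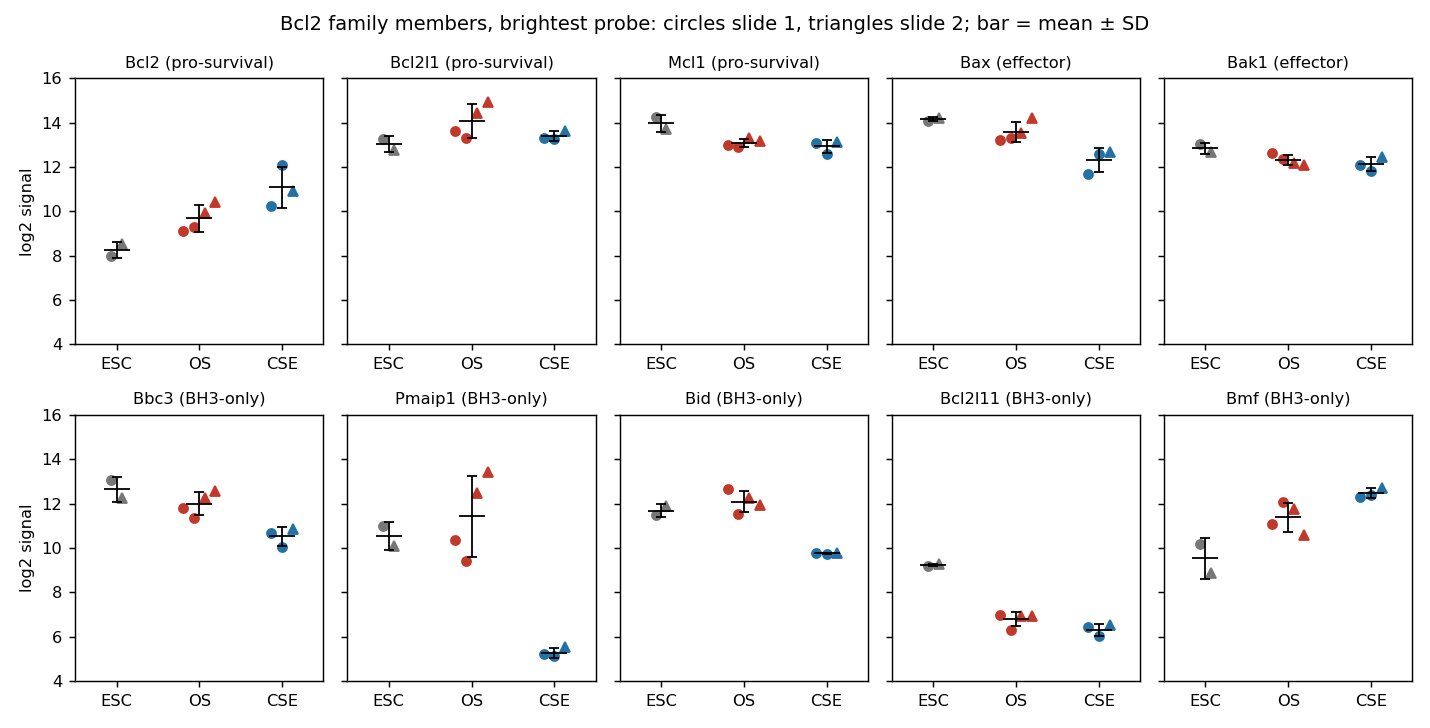
Log2 signal (vertical axis) of the 10 Bcl2 family genes in 2 ESC, 4 otosphere (OS) and 3 CSE samples, with circles for slide 1, triangles for slide 2 and bars for the mean ± SD of each group. Pmaip1 has the widest gap, between 9.43 and 13.42 in otospheres and between 5.10 and 5.53 in the CSE, where no array was well above background, while Bcl2 and Bmf run the other way, with the lowest means in ESCs and the highest in the CSE.

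Among the pro-survival genes, Bcl2, the founding member of the family, was lowest in ESCs and highest in the CSE. Its log2 signal was 7.999 and 8.516 in the 2 ESC samples, 9.10 (OS1 with OS2), 9.27 (OS3), 9.93 (OS4 with OS5) and 10.41 (OS6) in otospheres, and 10.26, 12.08 and 10.92 in CSE1 to CSE3. All otosphere samples lay above both ESC samples, and OS6 overlapped with the CSE. The CSE exceeded ESCs by 2.83 ± 0.55 on the log2 scale (SE, limma adjusted p = 0.00446). Otospheres were placed between them, 1.41 below the CSE (95% interval of the difference -2.45 to -0.37, limma adjusted p = 0.0926) and 1.42 above ESCs (0.24 to 2.60, adjusted p = 0.0745), and neither difference passed the threshold after adjustment. With every array counted as a separate sample, the difference from the CSE passed it, at -1.46 (limma adjusted p = 0.0294). The Bcl2 probe carries the accession of 1 transcript of the gene, and whether it also reads the others was not tested.

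Bcl2l1, which encodes BCL-XL, differed in its account between the 2 probes. The brighter probe read 13.27 and 12.76 in ESCs, 13.61, 13.31, 14.45 and 14.95 in the 4 otosphere samples in the order above, and 13.30, 13.25 and 13.64 in the CSE. The otosphere samples of slide 2 were the highest, and those of slide 1 lay within or next to the other groups. Its otosphere minus CSE difference was 0.68 (95% interval -0.18 to 1.54, limma adjusted p = 0.365), with 0.18 within slide 1 and 1.06 within slide 2. With both probes averaged it passed, at 0.99 (limma adjusted p = 0.0423). The otosphere minus ESC difference of the brighter probe was 1.06 (0.08 to 2.04, adjusted p = 0.105), which passed without OS3 at 1.32 (adjusted p = 0.0372). The dimmer probe read 8.23 and 7.97 in ESCs, 8.07, 8.12, 8.37 and 8.89 in otospheres, and 6.99, 7.48 and 6.72 in the CSE, so that every otosphere and ESC sample lay above every CSE sample. By that probe otospheres exceeded the CSE by 1.30 ± 0.26 (SE, limma adjusted p = 0.0127) and the CSE lay below ESCs, at -1.04 ± 0.31 (limma adjusted p = 0.0324). For CSE minus ESCs the brighter probe gave 0.38 (95% interval -0.65 to 1.41), and this sign turned to -0.54 when the processed signal was scaled to the 75th percentile and to -0.33 when both probes were averaged.

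Mcl1 encodes a short-lived pro-survival protein on which early embryonic cells depend. Its brighter probe read 14.25 and 13.71 in ESCs, 13.01, 12.91, 13.31 and 13.16 in otospheres, and 13.11, 12.59 and 13.12 in the CSE. Both ESC samples were the highest, and otospheres and the CSE overlapped. Otospheres fell below ESCs, with a difference of -0.88 ± 0.24 (SE, limma adjusted p = 0.0218), as did the CSE, with -1.04 ± 0.25 (adjusted p = 0.0126). Without ES1 both lost the call, at -0.61 and -0.77 (limma adjusted p = 0.162 and 0.0894). Between otospheres and the CSE this probe differed by 0.16 (95% interval -0.31 to 0.63), or -0.014 without CSE2. The dimmer probe separated all 3 groups without overlap, with 12.82 and 12.61 in ESCs, 11.24, 11.16, 11.14 and 10.95 in otospheres, and 10.01, 9.82 and 10.56 in the CSE. It gave otospheres 0.99 ± 0.20 above the CSE (limma adjusted p = 0.0133) and 1.59 below ESCs (difference -1.59 ± 0.23, adjusted p = 0.000876). Both Mcl1 probes thus placed ESCs highest, and they differed over otospheres against the CSE.

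**Figure D2:**
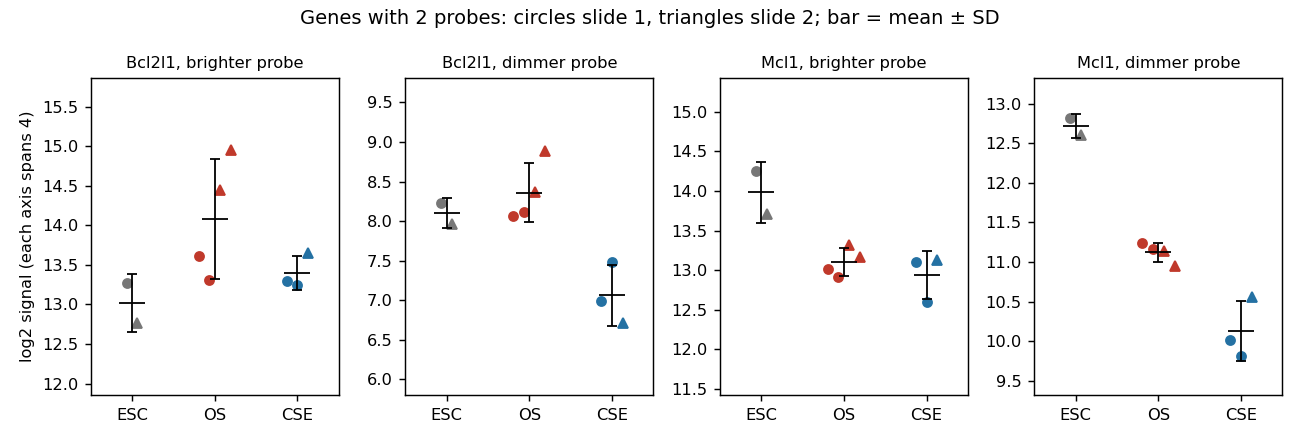
Log2 signal (vertical axis, each panel spanning 4 units) of both probes of Bcl2l1 and of Mcl1 in ESC, otosphere (OS) and CSE samples, with circles for slide 1, triangles for slide 2 and bars for the mean ± SD. In each gene the dimmer probe has every otosphere sample above every CSE sample, with differences of 1.30 and 0.99, and the brighter probe has the 2 groups overlapping.

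The effectors moved unequally. Bax, whose product is held inactive in the cytosol until it inserts into mitochondria, read 14.09 and 14.22 in ESCs, 13.21, 13.33, 13.54 and 14.22 in otospheres, and 11.69, 12.57 and 12.69 in the CSE. Every otosphere and ESC sample lay above every CSE sample, and otospheres reached the ESC level only in OS6. Bax was 2.39-fold higher in otospheres than in the CSE, a log2 difference of 1.26 ± 0.31 (SE, limma adjusted p = 0.0326), and the CSE lay below ESCs at -1.84 ± 0.37 (adjusted p = 0.00545). Otospheres and ESCs differed by -0.58 (95% interval -1.38 to 0.21, limma adjusted p = 0.268). Within slide 1 the otosphere minus CSE difference was 1.14 and within slide 2 it was 1.19. Across the other settings and left-out samples its adjusted p ran from 0.0106 to 0.118, and the call was lost without CSE1, CSE2, CSE3, OS6 or the pair OS4 and OS5.

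Bak1, the effector that sits in the outer mitochondrial membrane, read 13.02 and 12.66 in ESCs, 12.61, 12.37, 12.20 and 12.09 in otospheres, and 12.11, 11.84 and 12.47 in the CSE. The 3 groups lay close together, and none of the 3 comparisons passed the threshold. Otospheres differed from the CSE by 0.18 (95% interval -0.29 to 0.65, limma adjusted p = 0.742) and from ESCs by -0.53 (-1.06 to 0.01, adjusted p = 0.139). The CSE minus ESC difference was -0.71 (-1.27 to -0.14, limma adjusted p = 0.0636), and with the 75th percentile scaling, which lowered both groups against ESCs, it became -1.59 (adjusted p = 0.0109).

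Among the BH3-only genes, Pmaip1 had the widest range of group means in the family. It encodes NOXA, which binds MCL1 and is known as a target of both p53 and the integrated stress response. Its log2 signal was 10.995 and 10.101 in ESCs, 10.36, 9.43, 12.49 and 13.42 in otospheres, and 5.19, 5.10 and 5.53 in the CSE. On the linear scale of the scanner the CSE spots read 41.5 to 56, beside a local background of 34 to 38, and the otosphere spots 453.5 to 10435.5. No CSE array had the probe well above background and all otosphere and ESC arrays did. The folds are therefore bounds as regards the background, and not as regards the spread between samples. Relative to the CSE, the fold bound was 71.1-fold for otospheres and 38.7-fold for ESCs (limma adjusted p = 0.00234 and 0.00448). The 95% interval of the log2 difference was 4.22 to 8.09 for otospheres minus CSE and -7.59 to -2.96 for CSE minus ESCs. The fold bounds depended on the background offset and on single samples. They were 38.5-fold and 21.0-fold at an offset of 50, and 122-fold and 66.1-fold at an offset of 0. With the 75th percentile scaling they were 227-fold and 138-fold. The bound for otospheres was 44.8-fold without OS6 and 113-fold without OS3. Each otosphere sample exceeded each CSE sample, as 10.8% of all probes did, and the call held under all 20 alternative settings, with adjusted p from 0.000309 to 0.0147. Within slide 1 the log2 difference was 4.75 and within slide 2 it was 7.43.

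Pmaip1 also varied most among the otosphere samples, with an SD of 1.85. The difference in log2 signal between slide 2 and slide 1 samples was 3.06 for otospheres, 0.38 for the CSE and -0.89 for ESCs. Otospheres therefore lay below the ESC sample of slide 1 by 1.10 (difference -1.10) and above that of slide 2 by 2.85, and the pooled difference of 0.88 had a 95% interval of -1.32 to 3.07. Bcl2l1, Bcl2, Bbc3 and Bax leaned the same way within otospheres, with slide 2 minus slide 1 differences of 1.24, 0.98, 0.82 and 0.61, whereas Bid differed by 0.00, Bak1 by -0.34 and Bmf by -0.41. In all, 6 of the 10 genes were higher in both slide 2 than in both slide 1 otosphere samples and 1 was lower, beside 27.8% and 17.5% of all probes. Cell type markers moved with the slides too. Among otospheres, 8 of 9 hair cell markers were higher in both slide 2 samples, with summed linear signals of 6344 to 8811 against 2344 to 3340. Conversely, 6 of 7 fibroblast markers were lower and 1 higher, with sums of 81380 to 94910 against 144300 to 266000, and all 8 proliferation markers were lower, with 8633 to 12440 against 18660 to 39160. Of the other markers, 4 of 8 supporting cell genes were higher and 3 lower, 3 of 6 neuronal genes were higher and none lower, 1 of 6 endothelial and 1 of 5 macrophage genes were higher and 2 of each list lower, and 0 of 6 erythroid genes were higher and 1 lower. The part of these cells in the spread of Pmaip1 was not tested. The slide and the otosphere preparation cannot be told apart in these arrays, and with 2 samples on each side no test was made.

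Bid, whose product is cut by caspase-8 and so links death receptors to mitochondria, had the smallest adjusted p of the family for otospheres against the CSE. It read 11.48 and 11.91 in ESCs, 12.69, 11.51, 12.26 and 11.94 in otospheres, and 9.76, 9.75 and 9.76 in the CSE. The 3 CSE samples lay within an SD of 0.01 of each other, and all other samples were above them. Bid was 5.07-fold higher in otospheres than in the CSE, a log2 difference of 2.34 ± 0.27 (SE, limma adjusted p = 0.000897), and the difference was 2.34 within each slide. It stayed between 2.15 and 2.54 over the 20 alternative settings, past the threshold in each. Otospheres and ESCs differed by 0.41 (95% interval -0.28 to 1.09, limma adjusted p = 0.375), and the CSE lay below ESCs at -1.94 ± 0.32 (adjusted p = 0.00191).

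Bbc3, the gene of PUMA, a BH3-only protein that p53 induces and that binds all pro-survival members, read 13.06 and 12.26 in ESCs, 11.81, 11.37, 12.26 and 12.57 in otospheres, and 10.69, 10.03 and 10.86 in the CSE. All otosphere samples lay above the CSE samples, and their range met that of ESCs. Bbc3 was 2.79-fold higher in otospheres than in the CSE, a log2 difference of 1.48 ± 0.34 (SE, limma adjusted p = 0.0255), with 1.23 within slide 1 and 1.56 within slide 2. As for Bax, the call was lost without CSE1, CSE2, CSE3, OS6 or the pair OS4 and OS5, and with the 75th percentile scaling (limma adjusted p = 0.0518), over a range of 0.0048 to 0.0873. The CSE was below ESCs by a difference of -2.14 ± 0.41 (limma adjusted p = 0.00421), and otospheres minus ESCs gave -0.66 (95% interval -1.54 to 0.22, adjusted p = 0.255).

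Bcl2l11, the gene of BIM, which activates BAX and is known for its induction on loss of growth factors, set ESCs apart from both cochlear groups. It read 9.20 and 9.27 in ESCs, 6.97, 6.30, 6.93 and 6.93 in otospheres, and 6.43, 6.01 and 6.51 in the CSE. Otospheres fell below ESCs by a difference of -2.45 ± 0.24 (SE, limma adjusted p = 0.000145) and the CSE by -2.92 ± 0.26 (adjusted p = 7.62e-05), and both calls held in all 20 alternative settings. Otospheres and the CSE overlapped through OS3, with a difference of 0.47 (95% interval -0.02 to 0.96, limma adjusted p = 0.243).

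Bmf, whose product is tied to the cytoskeleton and is released when cells lose attachment, ran opposite to most of the family. It read 10.20 and 8.86 in ESCs, 11.09, 12.10, 11.75 and 10.61 in otospheres, and 12.31, 12.39 and 12.72 in the CSE. The 3 groups did not overlap, with ESCs lowest and the CSE highest. Bmf was the 1 member of the family with all otosphere samples below all CSE samples, as were 12.7% of all probes, and the difference of -1.09 (95% interval -2.02 to -0.16) did not pass the threshold (limma adjusted p = 0.149). Otospheres exceeded ESCs by 1.86 ± 0.47 (SE, limma adjusted p = 0.0163), a call lost without ES2, where the difference was 1.19 (adjusted p = 0.145). The CSE exceeded ESCs by 2.94 ± 0.49 (limma adjusted p = 0.00208).

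**Figure D3:**
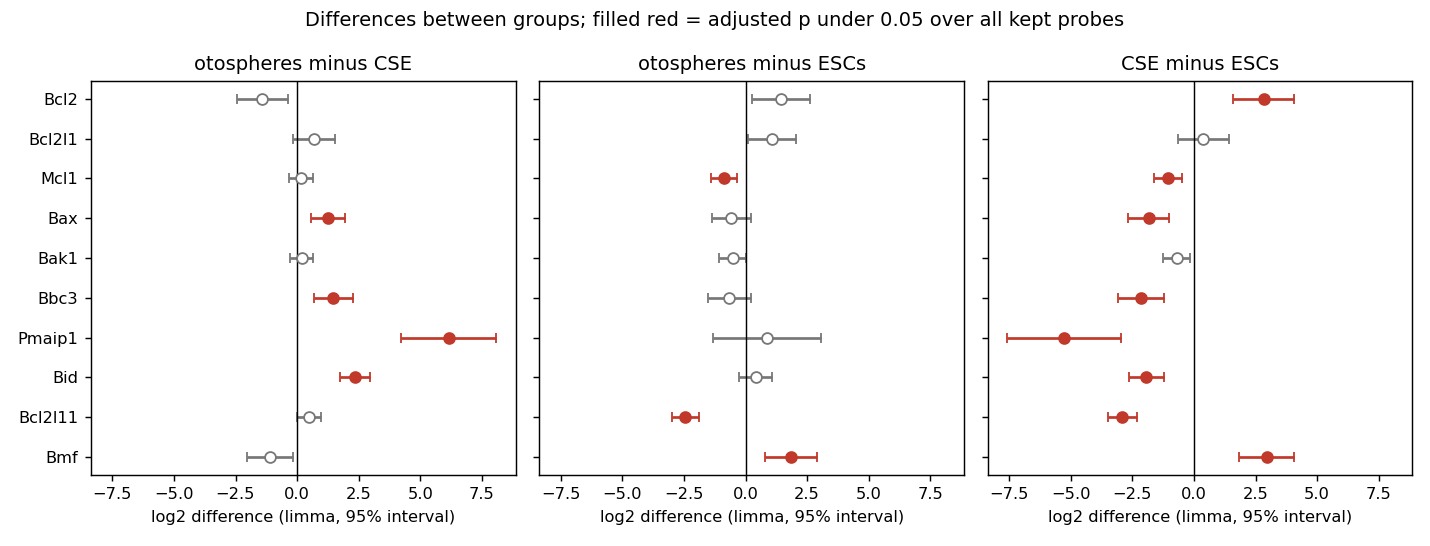
Log2 differences between group means (horizontal axis) for the 10 genes in the 3 comparisons, as points with 95% intervals from the limma model of 9 samples, in filled red where the adjusted p was under 0.05. Otospheres minus CSE has 4 filled points, all above 0, and CSE minus ESCs has 8, of which Bcl2 (2.83) and Bmf (2.94) are above 0 and 6 are below. An interval that leaves out 0 without a filled point did not pass after adjustment over all probes.

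Of the 4 genes that were higher in otospheres than in the CSE, Bax, Bbc3 and Bid have a promoter in the RefSeq table used here (GRCm38.p6). The 250 bases before an annotated transcription start of each are shown because the 3 genes moved together between these groups. The window of Pmaip1 was not used here. Bbc3 has 3 starts among these promoters, and the one furthest upstream of the 3 is shown. The annotated span of Bbc3 begins further upstream still, at 16308398, so the window shown lies inside the gene. The annotated span of Bid reaches 120917062 on the minus strand, so most of its window lies inside the gene too. Capitals mark the decamer motif of p53, the E-box CACGTG and the GC box GGGCGG, on either strand.
Bax, chr7:45466899-45467148, minus strand: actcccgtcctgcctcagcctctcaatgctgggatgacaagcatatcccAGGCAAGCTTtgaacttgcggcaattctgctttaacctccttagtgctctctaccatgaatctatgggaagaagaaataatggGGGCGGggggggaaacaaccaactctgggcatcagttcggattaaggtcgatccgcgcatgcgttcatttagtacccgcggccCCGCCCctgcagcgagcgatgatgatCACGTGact
Bbc3, chr7:16309333-16309582, plus strand: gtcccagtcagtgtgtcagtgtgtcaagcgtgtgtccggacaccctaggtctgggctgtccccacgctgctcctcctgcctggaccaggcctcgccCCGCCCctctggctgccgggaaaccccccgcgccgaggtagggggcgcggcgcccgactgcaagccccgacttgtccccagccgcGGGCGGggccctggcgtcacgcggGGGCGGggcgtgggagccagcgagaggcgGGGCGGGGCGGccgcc
Bid, chr6:120916825-120917074, minus strand: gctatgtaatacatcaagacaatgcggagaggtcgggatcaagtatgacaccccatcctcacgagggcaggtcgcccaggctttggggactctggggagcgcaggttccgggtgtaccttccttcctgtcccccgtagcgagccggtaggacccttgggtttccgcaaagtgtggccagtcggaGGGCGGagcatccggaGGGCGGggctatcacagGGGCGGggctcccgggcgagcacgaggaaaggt

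In the Bax window the p53 decamer began at position -201 and the E-box at -9, counted from the start site, and GC boxes lay at -118 and -35. The Bbc3 window held 5 GC boxes, of which the last 2, at -16 and -11, share a base, and the Bid window held 3, at -66, -50 and -33. The C/EBP-ATF element TGATGNAAN was searched too, on both strands, and lay in no window of the 9 genes examined. Of all 32851 windows of this length, 7.13% held the p53 decamer, 6.02% the E-box, 3.44% the C/EBP-ATF element and 32.7% the GC box. Among the 9 genes, the decamer was also found at 1 start of Bmf and the E-box also at the third start of Bbc3. Such matches describe letters only and are no evidence of binding.

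Outside the 10 genes, the rest of the family and the pathways that feed it were counted from fixed lists, with 1 probe per gene. The shares set beside these counts are of probes, and shares of genes are larger for otospheres against the CSE. With the kept probes of each gene averaged, 1642 of 18557 genes were higher and 2141 lower. Of 12 other Bcl2 family genes tested, 2 were higher in otospheres than in the CSE and none was lower. Of all probes, 4.84% were higher and 6.19% lower. The median difference of the 12 was -0.06 on the log2 scale. The 12 include Bcl2a1c and Bcl2l10, which were well above background on no otosphere or CSE array. Bcl2l15 differed most, by 6.03 ± 0.99 (SE, limma adjusted p = 0.00534), with 13.21, 13.48, 12.51 and 10.25 in otospheres and 6.38, 6.27 and 6.36 in the CSE. Bik, which encodes a BH3-only protein of the endoplasmic reticulum, followed with 1.91 ± 0.40 (limma adjusted p = 0.0164). The count of higher genes was 1 without CSE1 or CSE2, and that of lower genes was 1 without OS3, an ESC sample or the pair OS4 and OS5 and 2 without OS6. Against ESCs, 4 of these 12 were higher and 2 lower in otospheres, beside 12.1% and 15.6% of all probes. The effector-like gene Bok differed by -2.34 and the BH3-only gene Bad by 1.44 (limma adjusted p = 0.00149 and 0.00116).

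Downstream of the mitochondria, the apoptosome and caspase list had calls in otospheres against the CSE near the share over all probes. That share was 4.84% higher and 6.19% lower. Of 17 apoptosome and caspase genes, 1 was higher, the caspase inhibitor Birc3 (2.09 ± 0.50, limma adjusted p = 0.0288), and 1 lower, Casp2 (-0.84 ± 0.18, adjusted p = 0.0173), with a list median of -0.13. Without CSE1, CSE2 or the pair OS4 and OS5 neither gene passed, and Birc3 also failed without CSE3 or the pair OS1 and OS2. Apaf1 and Casp9, which form the apoptosome with cytochrome c, differed by 0.65 and -0.48 (limma adjusted p = 0.235 and 0.223). Of 10 regulators of BIM and MCL1, a separate list, none was higher and 2 were lower. The lower genes were Dynll2 (-0.87 ± 0.23) and Foxo1 (-0.74 ± 0.20), and the list median was -0.03. These 2 calls depended on single samples and on the processing, with 0 genes lower without CSE1, CSE3 or either averaged otosphere pair and 1 without any other sample. None was lower either with the 75th percentile scaling, with a background offset of 0 or in the authors' table, while 1 was lower with the slide as a block or a mean-variance trend. In the other direction, 1 gene was higher without ES1 or ES2, and with every array as a separate sample 2 were higher and 3 lower. Foxo1 encodes a transcription factor of Bcl2l11, and DYNLL2 is the dynein light chain that holds BMF.

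Upstream, the death receptor list had 4 of 8 genes higher in otospheres than in the CSE and none lower, with a median of 1.29. Of all probes, 4.84% were higher and 6.19% lower. Fas, the receptor of FAS ligand, read 11.02, 11.29, 10.94 and 10.03 in otospheres and 6.23, 5.81 and 6.22 in the CSE, a difference of 4.73 ± 0.35 (SE, limma adjusted p = 0.000119). Tnfrsf10b, the mouse TRAIL receptor, differed by 2.54 ± 0.37, Ripk1 by 1.43 ± 0.25 and Casp8, whose product cuts BID, by 1.35 ± 0.22. The count of higher genes stayed at 4 or 5 over the alternative settings.

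The p53 list, of which Bax, Bbc3 and Pmaip1 are not members, had 9 of 18 genes higher and 1 lower in otospheres, with a median of 1.02. Of all probes, 4.84% were higher and 6.19% lower. Gadd45a differed by 3.01 ± 0.26, Phlda3 by 2.94 ± 0.44, Perp by 2.61 ± 0.55 and the cell cycle inhibitor Cdkn1a by 2.29 ± 0.50, with limma adjusted p from 0.000234 to 0.0201. The gene that was lower was Sesn1, at -1.56 (limma adjusted p = 0.00680). Trp53 itself was highest in ESCs and differed between otospheres and the CSE by 0.99 ± 0.27 (limma adjusted p = 0.0480). The count of higher genes fell to 5 without CSE1, CSE2 or the pair OS4 and OS5 and to 6 without CSE3, and rose to 11 without OS3, ES1 or ES2. Against ESCs, 2 of the 18 were higher and 1 lower in otospheres, beside 12.1% and 15.6% of all probes, with a median of -0.04. Within otospheres, 7 of the 18 were higher in both slide 2 than in both slide 1 samples and 1 was lower. Over all probes these shares were 27.8% and 17.5%. Gadd45a was not among the 7, with 10.69, 11.38, 11.15 and 11.30.

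The integrated stress response list had 3 of 11 genes higher in otospheres and none lower, with a median of 1.54, beside 4.84% and 6.19% of all probes. Chac1, a glutathione-degrading enzyme, differed by 5.02 ± 0.99 (SE, limma adjusted p = 0.0128), Trib3, a pseudokinase induced by ATF4 and CHOP, by 4.95 ± 0.75 (adjusted p = 0.00367) and Atf5 by 2.30 ± 0.60 (adjusted p = 0.0420). The count of higher genes was 2 without CSE1, CSE2, OS6 or the pair OS4 and OS5, and 6 without OS3. That of lower genes was 1 without OS3, with the slide as a block, with every array separate or at a background offset of 50. Both counts also moved without ES1 or ES2, where 1 ESC sample remained. Within otospheres all 3 genes were, like Pmaip1, lowest in OS3 and higher in both slide 2 samples than in both slide 1 samples. Trib3 read 12.86, 11.42, 14.64 and 14.86 and Chac1 12.46, 10.16, 14.61 and 14.72, beside 10.36, 9.43, 12.49 and 13.42 for Pmaip1. In the whole list 8 of 11 genes were higher in both slide 2 samples and 1 was lower. Over all probes these shares were 27.8% and 17.5%.

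**Figure D4:**
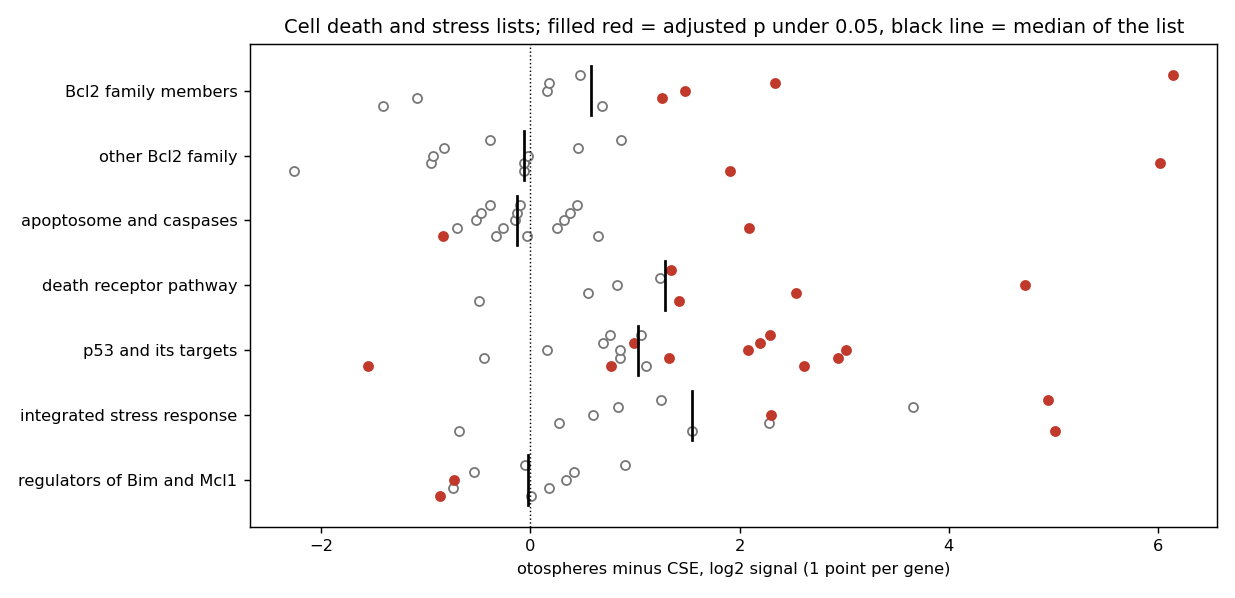
Otosphere minus CSE differences in log2 signal (horizontal axis) of every gene tested in the Bcl2 family and in 6 related lists (vertical axis), with filled red points for adjusted p under 0.05 and a black line at each list's median. The medians of the death receptor, p53 and integrated stress response lists lie at 1.29, 1.02 and 1.54, and those of the apoptosome and caspase list and of the other Bcl2 family genes at -0.13 and -0.06.

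The genes whose signal across the 9 samples was most like that of the member with the widest spread of group means in each class were picked from 18553 genes by Pearson's r, as a description over samples that share groups and slides. Pmaip1 was most like Pvr (r = 0.996), the poliovirus receptor, Anxa7 (0.992) and Syngr1 (0.985). Pvr read 10.58 and 9.66 in ESCs, 10.17, 9.75, 11.23 and 11.94 in otospheres, and 6.93, 7.10 and 6.93 in the CSE. It too was lowest in the CSE and highest in the slide 2 otospheres, with a smaller gap than Pmaip1. Bax was most like Asl (0.975), Slc26a2 (0.960) and Otud5 (0.958), each lowest in the CSE. Bcl2 was most like Ttll3 (0.970), 4930546C10Rik (0.964) and Nufip1 (0.959), each with its highest mean in the CSE. For 4930546C10Rik the means of 5.11 in ESCs, 5.33 in otospheres and 5.48 in the CSE lay near the limit for dim probes. That limit was 5.13 to 5.39 on the arrays.

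**Figure D5:**
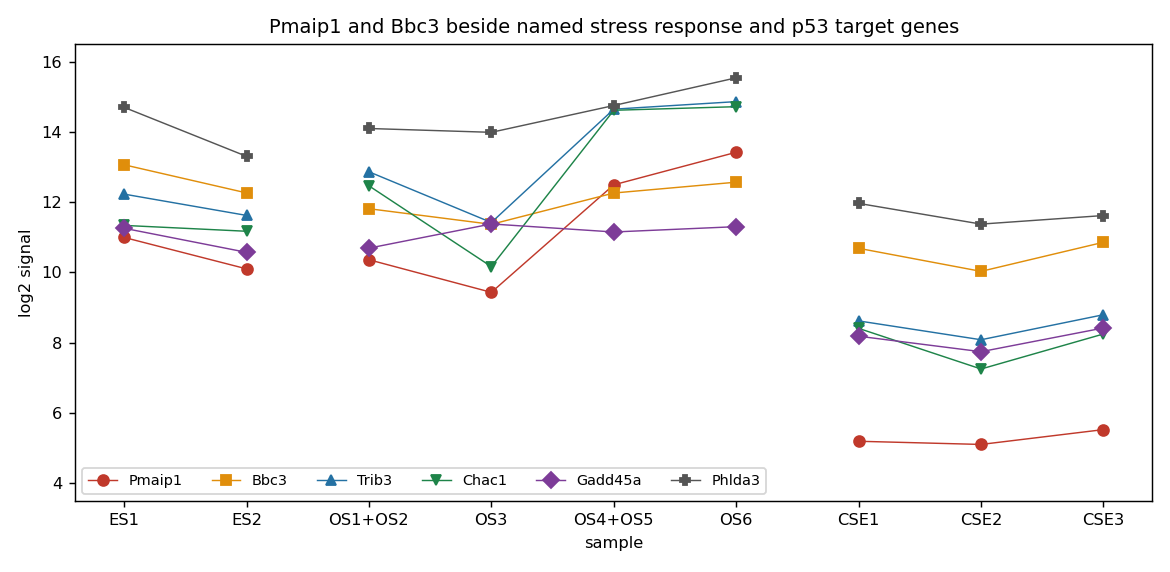
Log2 signal (vertical axis) in each of the 9 samples (horizontal axis) of Pmaip1 and Bbc3 beside the 2 genes with the largest otosphere minus CSE difference among those called in the integrated stress response list (Chac1 and Trib3) and in the p53 list (Gadd45a and Phlda3), with lines joining samples of 1 group for legibility only. Among the otosphere samples 5 of the 6 genes are lowest in OS3 and higher in OS4 with OS5 and in OS6, Gadd45a is highest in OS3, and Pmaip1 lies between 5.10 and 5.53 in the CSE.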

How the data were processed

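RNA of 11 samples was hybridized to single-colour arrays, with 50 or 100 ng labelled and the amount per sample not given in the sources used here. The authors deposited scanner files made by Feature Extraction 10.7.3.1, with the median intensity of every spot, that of the background around it and a processed intensity, and a table of log2 values that they background-corrected, quantile-normalized and filtered, which served as an alternative. Here, the normexp method of limma 3.58.1 (R 4.3.3, offset 16) was applied to the median intensities, which were set to log2 and quantile-normalized over all arrays. Control and outlier spots were left out, and spots of a probe were averaged. Of 55681 probes, 47997 passed the filter on dim probes, set 10% above the 95th percentile of the 308 negative controls of an array and asked of at least 2 arrays, and all 12 probes of the family were among them. Genes were named through the RefSeq accession of each probe (GRCm38.p6 table). The pair OS1 and OS2 and the pair OS4 and OS5 were averaged, since the SD of their differences was 0.946 and 0.433 times that expected from spot noise, against 1.72 or more for every other pair in a group. The labels do not say which samples are separate preparations, so p-values measure the spread between these 9 samples, which may be technical. A limma model with 1 mean per group, tested on simulated data, gave the F-test and the 3 comparisons, two-sided. A fold given as a bound sets the bright group's mean against the dim group's lowest well-measured signal or the probe's own, whichever was higher.

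A gene's main probe is its kept probe with the highest mean signal. From each related list, up to 4 genes with the largest otosphere minus CSE difference past the threshold are named, with Sesn1, Trp53, Apaf1, Casp9, Bok and Bad added after their values were seen. The members, lists and tests were chosen with earlier results of these data known, and the alternative settings for the related lists and for the fold bounds were added after their values had been seen.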

Additional observations from a re-analysis of the deposited data

Results flagged for a closer look

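Bcl2l11 in the otosphere sample OS3, at a log2 signal of 6.30, lay apart from the other 3 otosphere samples, which read 6.93 to 6.97. The gap was 0.942 of the group's range, above the 95% critical value of Dixon's test for 4 samples. It was the only such value among the 12 probes of the family in otospheres, and chance alone flags about 1 in 20 groups. Groups of 2 and 3 samples were not tested.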

How the results depend on the processing

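Over 20 alternative settings, 567 of 600 differences of the 10 genes kept direction and side of the threshold, 16 lost the call, 13 gained it and 4 changed sign, and none of these 4 was a called difference. The sign changes were Bcl2l1 in CSE minus ESCs (-0.54 with 75th percentile scaling, -0.33 with both probes averaged), Pmaip1 in otospheres minus ESCs (-0.41 with every array separate and a replicate block) and Mcl1 in otospheres minus CSE (-0.014 without CSE2, with 0.25 as the highest value when a sample was left out). With the 75th percentile scaling, which moved the median over all probes from -0.03 to -0.28 for otospheres minus ESCs and from -0.06 to -0.25 for CSE minus ESCs, 2 genes were higher in otospheres than in ESCs (Bcl2 and Bmf) and 4 lower (Mcl1, Bax, Bak1 and Bcl2l11). With every array as a separate sample, 1 gene, Bcl2, was lower in otospheres than in the CSE and 2, Bcl2 and Bmf, were higher than in ESCs. With the replicate number as a block as well, 2 genes, Pmaip1 and Bid, were higher in otospheres than in the CSE and 1, Bcl2, was lower. Whether the labels' numbers pair the samples could not be told. Same-numbered arrays of different groups had correlations from -0.379 to 0.373, and differently numbered ones from -0.288 to 0.484. Of 8 arrays, 2 correlated best with their own number. The correlations used deviations from group means, which are tied to each other in groups this small.

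Leaving out each sample in turn gave 2 to 4 genes higher in otospheres than in the CSE, with 2, Pmaip1 and Bid, left without CSE1, CSE2, CSE3, OS6 or OS4 with OS5. It gave 0 to 2 higher than in ESCs, with 0 without ES2 and 2 without OS3 (Bcl2l1 and Bmf) or CSE2 (Bcl2 and Bmf), and 1 to 2 lower than in ESCs, with 1, Bcl2l11, without ES1. A group reduced to 1 ESC sample was assumed to vary like the others. Background offset, filter, authors' table, slide as a block and variance trend moved no count of the family by over 1.5 times.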
